A study of Mus musculus with 6 samples.

Results

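The livers of mice given carbon tetrachloride (CCl4) together with a control virus (AAV-Ctrl, 2 libraries) were compared with the livers of mice labelled normal (Normal, 2 libraries), by sequencing of RNA from whole liver. The comparison covers the 13151 of 55222 genes in the deposited table whose mean was at least 1 FPKM (fragments per kilobase of transcript, scaled to the mapped fragments of the library) in at least 1 of these 2 groups, and 4 of the 6 libraries of the series. The other 2 libraries, from mice given CCl4 and a virus against Phpt1 (AAV-shPhpt1), entered only the estimate of the spread between replicates. By the counts of genes called, the livers given CCl4 held more transcript of stress, secretory, cytoskeletal, matrix and phagocyte genes, and less of cytochromes, carboxylesterases, urinary proteins and enzymes of fatty acid and amino acid breakdown.

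CCl4 is a solvent that hepatocyte cytochromes, above all Cyp2e1 around the central vein, convert into radicals that attack membrane lipids and proteins. Hepatocytes near the central vein die, macrophages clear them, stellate cells deposit matrix, and the hepatocytes that remain can divide to replace the loss. Hepatocytes make most plasma proteins, detoxify drugs and ammonia, burn fatty acids and produce bile acids, so injury can be read across many pathways.

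Per the labels, every mouse was of the C57BL/6 strain background. The AAV-Ctrl mice received CCl4 in olive oil into the peritoneum, 12.5 ml/kg and 2 times per week, and the adeno-associated virus AAV-Ctrl into a vein once 1 week of CCl4 had passed. Collection followed 48 h behind the final dose, and the labels state 5 mice per group. No injection is named for the Normal mice, so the parts of CCl4, olive oil and virus in any difference cannot be told apart. The serotype and promoter of the virus, the number of CCl4 doses, the sex and age of the mice and the hour of collection were not stated in the labels. Whether the 2 libraries of a group stem from different mice is also unstated, and a p value here measures only how far these samples spread. In whole liver, fewer cells of a type and less RNA per cell cannot be told apart.

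Both groups read as liver. Alb, the gene of albumin, read 72939 and 78313 FPKM in Normal and 72960.2 and 75321 FPKM in AAV-Ctrl, and its share of all FPKM was 9.45% and 10.2% in Normal against 9.95% and 10.3% in AAV-Ctrl. Ttr, which encodes the thyroxine carrier transthyretin, read 4245 and 4029.7 FPKM in Normal and 4339 and 3503 FPKM in AAV-Ctrl, and the hepatocyte factor Hnf4a read 284 and 291 FPKM in Normal and 297 and 269 FPKM in AAV-Ctrl. Cps1, the entry enzyme of the urea cycle, read 755 and 696 FPKM in Normal and 991 and 628 FPKM in AAV-Ctrl. The 2 groups overlapped for each of these 4 genes, and none of them passed the test. Apoa1, the main protein of high-density lipoprotein, read 10764 and 10988 FPKM in Normal and 4851 and 5350.4 FPKM in AAV-Ctrl, with groups that did not overlap and an adjusted p of 0.0591 in limma.

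The libraries held between 21488841 and 24067312 reads, as implied by the steps of the FPKM values, with 20144 and 21430 genes above 0 in Normal and 22412 and 22957 in AAV-Ctrl. The SD between replicates over genes was 0.3066 in Normal and 0.2774 in AAV-Ctrl on the log2 scale. It was 0.4083 in AAV-shPhpt1, which also entered the spread behind each test. The first principal component, which separated the groups, took 82.05% of the variance among the 4 libraries. Of the genes tested, 2662 rose (20.2%) and 336 fell (2.55%) in AAV-Ctrl against Normal by limma at a Benjamini-Hochberg adjusted p under 0.05. The unadjusted p was under 0.05 for 5629 genes. Of all 13151 genes tested, 10098 lay higher in AAV-Ctrl and 3053 lower, and the 2 groups did not overlap in 73.4%. The median gene itself stood 0.362 higher in AAV-Ctrl on the log2(FPKM + 1) scale. In the same libraries the 100 most abundant genes took 53.15% and 51.42% of all FPKM in Normal and 45.15% and 44.98% in AAV-Ctrl.

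Centring each library on its median lowered every log2 difference by 0.45 and left 621 genes risen (4.72%) and 811 fallen (6.17%). All 621 had also risen without centring, and all 336 genes that fell without centring fell with it. Counts of called genes in the lists below are therefore given without and with centring, and medians of a list stand beside the median of 0.362 over all genes tested. Each count is to be read against the shares of all genes, 20.2% risen and 2.55% fallen without centring. With centring these shares were 4.72% and 6.17%. Without centring, few of the calls remained when any 1 of the 4 compared libraries was left out. With centring few remained as well, except without AAV-Ctrl replicate 1, where a larger part did. The lone sample of a group is assumed in those fits to vary like the other groups. The plot of calls by processing choice shows the counts under each alternative.

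**Figure D1:**
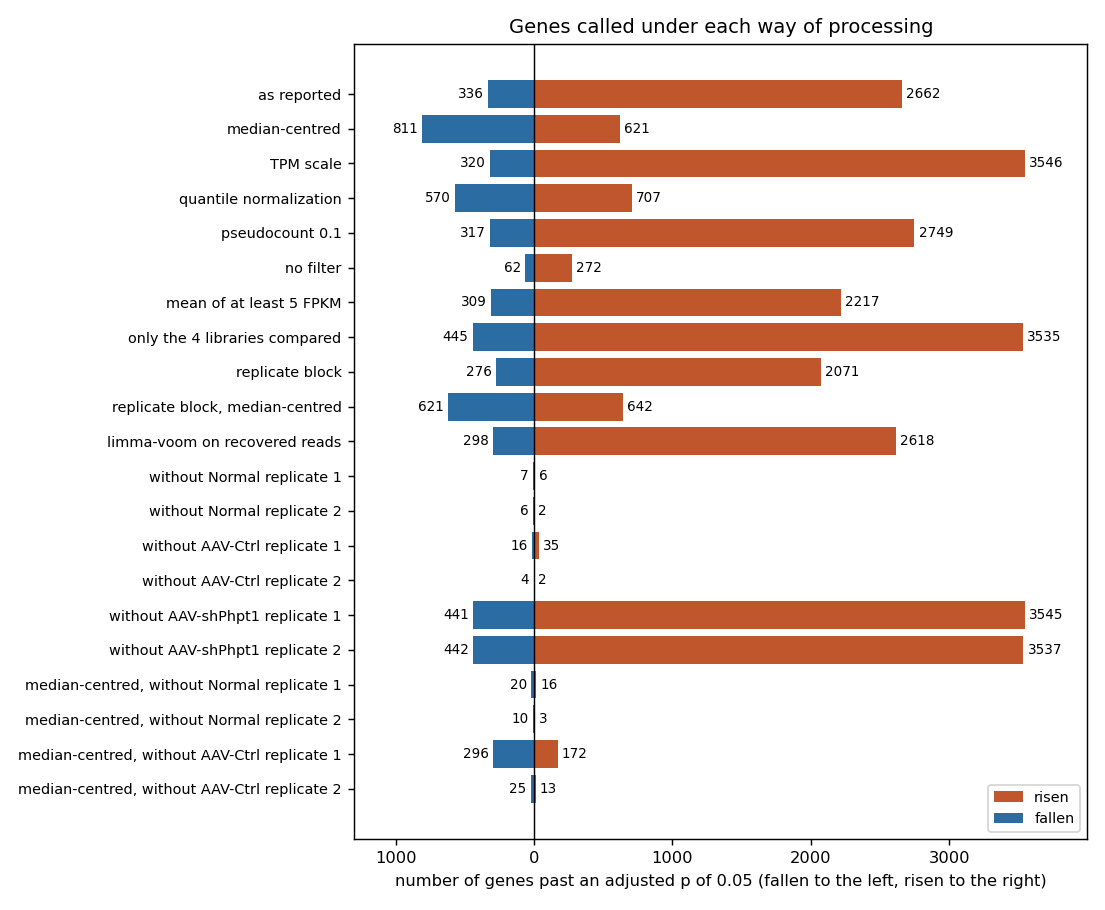
Numbers of genes that fell (blue, to the left) and rose (orange, to the right) in AAV-Ctrl against Normal at a limma adjusted p under 0.05, under each way of processing the same table. The reported fit has 2662 rises and 336 falls, and centring turns this into 621 and 811. Without any 1 of the 4 compared libraries the bars nearly vanish, except with centring and without AAV-Ctrl replicate 1, where they stay visible.

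The genes were read in 92 lists with 2394 different genes, of which 2389 were in the table and 2130 passed the filter of 1 FPKM. Of those 2130, 636 rose and 126 fell. The medians of 53 lists lay above the median of all genes and those of 37 below it, and 23 lists had a median below 0. The plot of list medians orders the lists with at least 10 genes tested, from monocytes and macrophages at the top to the major urinary proteins at the bottom. In 52 lists no gene fell by the test. Their 1249 places held 15 genes lower at an unadjusted p under 0.05 in limma and 1 that fell by limma-voom on reads recovered from the FPKM values. In 9 lists no gene rose, and their 196 places held 3 genes higher at an unadjusted p under 0.05 and 0 that rose by limma-voom. With centring 27 lists had no rise and 37 no fall by limma, and they held 37 places higher of 633 and 34 lower of 809 at an unadjusted p under 0.05. Of the genes described here as not passing, Apoa1, Herpud1, Igf1, Junb, Notum, Otc and Per3 fell with centring.

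**Figure D2:**
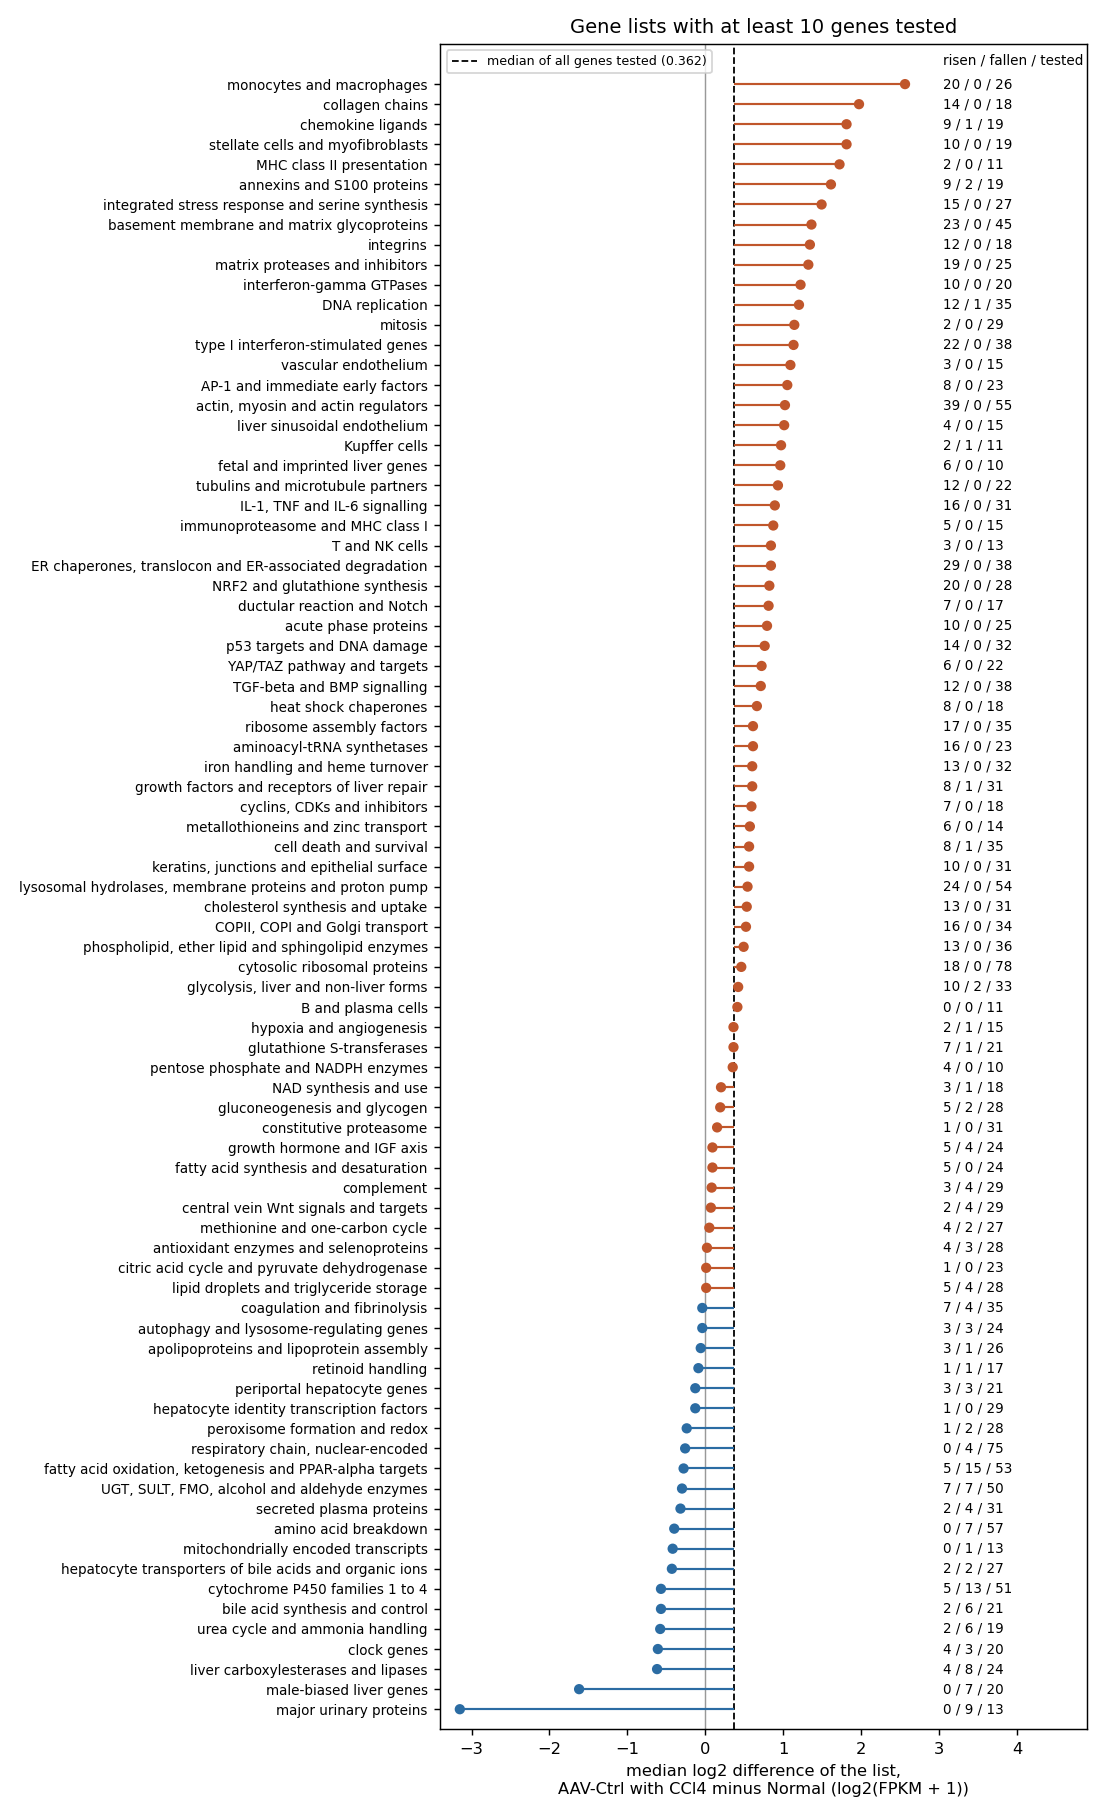
Median log2 difference of each gene list (x axis, AAV-Ctrl minus Normal, in log2(FPKM + 1)), drawn as a line from the median of all genes tested (dashed, 0.362), with the numbers of risen, fallen and tested genes at the right. Orange marks medians above 0 and blue medians below 0. Monocyte and macrophage genes have the highest median, 2.56, and major urinary proteins the lowest, -3.15.

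Many of the falls were in drug metabolism. Cytochromes P450 of families 1 to 4 oxidise drugs, steroids and fatty acids in the hepatocyte. Of 51 tested, 13 fell and 5 rose (17 and 2 with centring), with a median of -0.57 against 0.362 over all genes. Cyp2c37 read 108 and 102 FPKM in Normal and 4.29 and 0.41 FPKM in AAV-Ctrl, a fall of 44.8-fold (log2 difference -5.28 ± 0.56 SE, adjusted p = 0.01 by limma). Cyp2c50 read 408 and 390.0 FPKM in Normal and 74.8 and 21.1 FPKM in AAV-Ctrl. Both were low in each AAV-Ctrl library and high in each Normal library. Cyp2c54 and Cyp2c67 fell as well, by 12.5-fold and 4.09-fold. Cyp2c genes are near-identical copies of each other, and how reads were divided between them is uncertain. The 5 risen cytochromes included Cyp4f16 and Cyp4f18, of a family that hydroxylates leukotrienes and fatty acids. Cyp4f16 read 1.35 and 1.82 FPKM in Normal and 8.45 and 10.9 FPKM in AAV-Ctrl, and Cyp4f18 rose by 9.03-fold. Cyp1a1, the classical target of the dioxin receptor, rose by 4.32-fold from a level of 0.28 and 0.629 FPKM. It did not pass with centring. Cyp1a2 read 731 and 882 FPKM in Normal and 945 and 747 FPKM in AAV-Ctrl, with overlapping groups. Cyp3a11 read 1403 and 886 FPKM in Normal and 784 and 719 FPKM in AAV-Ctrl. Neither Cyp1a2 nor Cyp3a11 passed.

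Conjugating and oxidising enzymes beyond the cytochromes fell more often than all genes and rose less often. Among 50 UDP-glucuronosyltransferases, sulfotransferases, flavin mono-oxygenases and alcohol or aldehyde enzymes, 7 rose and 7 fell (2 and 10 with centring), with a median of -0.30. Each 7 is 14.0%, against 20.2% risen and 2.55% fallen of all genes tested. Aox3, an aldehyde oxidase of liver, read 859 and 875 FPKM in Normal and 244 and 123 FPKM in AAV-Ctrl, a fall of 4.72-fold. Ugt1a1, the enzyme that conjugates bilirubin, fell by 2.29-fold to 12.2 and 7.68 FPKM, while Ugt1a9, from the same gene cluster and sharing its last exons, read 16.3 and 12.7 FPKM in Normal and 53.2 and 44.8 FPKM in AAV-Ctrl and rose by 3.37-fold. Since the Ugt1a genes share those exons, the division of reads between them is uncertain. Xdh, which makes uric acid, rose by 1.73-fold, and Fmo4 by 3.28-fold, neither of them with centring. The carboxylesterases, which cleave ester drugs and lipids in the ER, showed more falls than rises: 8 of 24 fell, 4 rose, 11 and 0 did with centring, and the median was -0.62. Ces3b, made mainly in liver, read 676 and 831 FPKM in Normal and 112 and 194 FPKM in AAV-Ctrl. Ces2b read 5.58 and 6.11 FPKM in Normal and 0.0508 and 0.109 FPKM in AAV-Ctrl, so that it was near 0 in both AAV-Ctrl libraries, and Ces2a, Ces2c, Ces1e and Ces4a fell by 2.14-fold, 2.58-fold, 2.38-fold and 17.1-fold.

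Glutathione S-transferases, which attach glutathione to reactive compounds, included 7 risen genes and 1 that fell among 21, with 5 rises and 3 falls with centring. Gstm3 read 30.7 and 44.6 FPKM in Normal and 1145 and 709.9 FPKM in AAV-Ctrl, a rise of 24.6-fold (log2 difference 4.57 ± 0.76 SE, adjusted p = 0.0193 by limma). Gstk1, the transferase of mitochondria and peroxisomes, went the other way and fell by 1.86-fold. Reads of the Gstm and Gsta genes can fall on near-identical copies, so values of single members are uncertain. The pi-class gene Gstp1, at 2966 and 2596 FPKM in Normal and 1882 and 3123 FPKM in AAV-Ctrl, did not pass (adjusted p = 0.638).

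Bile acid synthesis starts from cholesterol by Cyp7a1 or by Cyp27a1, and the last steps attach coenzyme A and then taurine or glycine. Of 21 genes of this group 6 fell and 2 rose (7 and 1 with centring), with a median of -0.57. Slc27a5, the ligase that activates bile acids for conjugation, read 840.2 and 665 FPKM in Normal and 414 and 303 FPKM in AAV-Ctrl. Cyp27a1 read 488 and 509.5 FPKM in Normal and 354 and 219 FPKM in AAV-Ctrl, and Amacr, the racemase of side-chain shortening, fell by 1.6-fold. Cyp39a1, an oxysterol hydroxylase, was the contrary case at 6.13 and 6.37 FPKM in Normal and 17.9 and 18.9 FPKM in AAV-Ctrl, a rise of 2.95-fold. Cyp7a1 spread too widely for any statement, with 12.4 and 42.9 FPKM in Normal and 95.1 and 8.06 FPKM in AAV-Ctrl. Of 27 transporters of bile acids and organic ions 2 fell and 2 rose (5 and 1 with centring). The importer Slc10a1 read 429.7 and 493 FPKM in Normal and 256 and 148 FPKM in AAV-Ctrl, a fall of 2.29-fold, whereas the exporter Abcb11 read 179 and 117 FPKM in Normal and 187 and 114 FPKM in AAV-Ctrl, with overlapping groups. Abcc4, an exporter of the sinusoidal side, rose from 0.175 and 0.339 to 8.27 and 11.7 FPKM.

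Nitrogen metabolism was lower at selected steps. Of 19 urea cycle and ammonia genes 6 fell and 2 rose, with a median of -0.58 (10 and 2 with centring). Oat, the ornithine aminotransferase of central vein hepatocytes, read 553 and 466 FPKM in Normal and 121 and 61.1 FPKM in AAV-Ctrl, a fall of 5.58-fold. Asl, which splits argininosuccinate, read 265 and 340.4 FPKM in Normal and 178 and 111 FPKM in AAV-Ctrl. The other cycle enzymes Ass1 at 2523 and 2128 FPKM in Normal and 2063 and 1019 FPKM in AAV-Ctrl, Arg1 at 1269 and 1540.1 FPKM in Normal and 1497 and 1239.8 FPKM in AAV-Ctrl and Otc at 174 and 181 FPKM in Normal and 136 and 93.4 FPKM in AAV-Ctrl did not pass. The neutral amino acid transporter Slc1a4 rose from 1.29 and 1.21 to 12.1 and 9.5 FPKM, while the glutamine transporter Slc38a3 fell by 1.89-fold. Amino acid breakdown was a list of many small differences: 49 of 57 genes lay lower in AAV-Ctrl and the median was -0.40, but 7 fell by the test and 0 rose. With centring 18 fell, against 6.17% of all genes, and 0 rose. Those that fell included Fah, the last enzyme of tyrosine breakdown, at 741 and 768 FPKM in Normal and 530.0 and 391 FPKM in AAV-Ctrl, Kmo and Haao of the kynurenine pathway, by 1.69-fold and 1.6-fold, and Ivd of leucine breakdown, by 1.76-fold.

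The methionine and one-carbon cycle held calls in both directions. Of 27 genes 4 rose (14.8%) and 2 fell (7.4%), against 20.2% and 2.55% of all genes tested. With centring 3 rose and 2 fell. Ahcy, which hydrolyses S-adenosylhomocysteine, read 1255 and 1252 FPKM in Normal and 575 and 426 FPKM in AAV-Ctrl, a fall of 2.5-fold (log2 difference -1.34 ± 0.20 SE, adjusted p = 0.0158 by limma). Gamt, the creatine-forming methyltransferase, fell by 2.02-fold. The mitochondrial folate enzymes Mthfd2, at 3.29 and 2.71 FPKM in Normal and 11.9 and 16.6 FPKM in AAV-Ctrl, and Aldh1l2, at 0.078 and 0.158 FPKM in Normal and 6.01 and 7.4 FPKM in AAV-Ctrl, rose. Mat2a, the S-adenosylmethionine synthetase of most tissues, read 16.5 and 17.8 FPKM in Normal and 19.5 and 21.1 FPKM in AAV-Ctrl and did not pass.

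Fatty acid oxidation, ketogenesis and targets of PPAR-alpha, the fatty acid sensor of the hepatocyte, counted 15 falls and 5 rises among 53 genes, with a median of -0.28 (23 and 2 with centring). The peroxisomal enzymes were among the falls. Acaa1b, a thiolase of peroxisomal oxidation, read 442 and 578 FPKM in Normal and 174 and 108 FPKM in AAV-Ctrl, and Decr2 and Eci2 fell by 2.69-fold and 2.26-fold. Acsl1, which activates fatty acids, fell by 1.93-fold. The mitochondrial dehydrogenases Acadm, at 255 and 265 FPKM in Normal and 339.8 and 312 FPKM in AAV-Ctrl, and Acadl, at 101 and 132 FPKM in Normal and 122 and 129.5 FPKM in AAV-Ctrl, did not pass. Cd36, a fatty acid uptake receptor that macrophages also carry, rose from 1.32 and 1.56 to 34.6 and 26.2 FPKM (log2 difference 3.67 ± 0.79 SE, adjusted p = 0.0289 by limma). Its rise went with the macrophage genes described below, and their part in it was not tested.

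Most respiratory chain subunits read slightly lower in AAV-Ctrl. Of 75 nuclear-encoded subunits 68 were lower in AAV-Ctrl, the median was -0.26, and 4 passed the test. With centring 34 of the 75 fell, against 6.17% of all genes. Ndufs3, a core subunit of complex I, read 139 and 152 FPKM in Normal and 106 and 94.8 FPKM in AAV-Ctrl, a fall of 1.45-fold, and Ndufb10, Ndufb3 and Ndufv3 of the same complex fell by 1.4-fold, 1.47-fold and 1.43-fold. All 13 mitochondrially encoded transcripts were lower, with a median of -0.42, and mt-Atp8 passed, at 26.5 and 19.5 FPKM in Normal and 9.75 and 8.76 FPKM in AAV-Ctrl (2 genes fell with centring). The 13 summed to 52030 and 53990 FPKM in Normal and 41040 and 35030 FPKM in AAV-Ctrl. All entries with a mitochondrial (mt-) name, which include more than these 13, took 7.18% and 7.46% of FPKM in Normal and 5.87% and 5.05% in AAV-Ctrl. In both measures the groups did not overlap. In the citric acid cycle 23 genes had a median of 0.01, and Cs, the citrate synthase, was the single one to pass, a rise at 35.4 and 40.4 FPKM in Normal and 75.3 and 62.6 FPKM in AAV-Ctrl. With centring Cs did not pass, and 4 genes fell, Idh3b, Ogdh, Fh1 and Mpc2.

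The lowest median of the 92 lists belonged to the major urinary proteins, small pheromone carriers that mouse hepatocytes secrete for excretion and that pulsatile growth hormone keeps high in males. Of 13 tested, 9 fell, with centring too. Mup17 read 979.8 and 295 FPKM in Normal and 0.146 and 0 FPKM in AAV-Ctrl, and Mup12, Mup1 and Mup18 fell by 70.4-fold, 76.8-fold and 78.3-fold. As a family they took 3.03% and 2.28% of FPKM in Normal and 0.42% and 0.62% in AAV-Ctrl. The Mup genes are near-identical copies, so the family share is the safer value, and it did not overlap between the groups. Mup20 at 4427 and 2267 FPKM in Normal and 1149 and 1386 FPKM in AAV-Ctrl, Mup3 at 9646 and 9956 FPKM in Normal and 1857 and 2778 FPKM in AAV-Ctrl and Mup21 at 261 and 319.6 FPKM in Normal and 20.5 and 48.6 FPKM in AAV-Ctrl did not pass. Mup14 was the one that lay higher, at 0.178 and 0.107 FPKM in Normal and 23.6 and 0.954 FPKM in AAV-Ctrl, with AAV-Ctrl replicates far apart, and it did not pass either.

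Other male-biased liver genes lay on the same side. All 20 of 20 were lower in AAV-Ctrl, 7 fell by the test (8 with centring), and 15 were at least 2-fold lower with groups that did not overlap, against 2.18% of all genes tested. Ugt2b1, a steroid-conjugating enzyme, read 468 and 453 FPKM in Normal and 201 and 164 FPKM in AAV-Ctrl. C6, a complement protein, read 239.5 and 257 FPKM in Normal and 106 and 119 FPKM in AAV-Ctrl, and Ugt2b38 fell by 10.3-fold. Of 7 female-biased genes 1 rose, Abcd2, a peroxisomal fatty acid transporter, at 1.05 and 4.97 FPKM in Normal and 22.6 and 15.5 FPKM in AAV-Ctrl, though not with centring. Another 15 of the list lay under the filter. Of the 7 tested, 6 were higher in AAV-Ctrl, as were 10098 of all 13151 genes. The median was 1.26, and 4 were at least 2-fold higher with groups that did not overlap, against 14.8% of all genes. The labels do not state the sex of the mice, and a difference in sex between the groups was not tested.

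Growth hormone acts on the hepatocyte through its receptor Ghr and the kinase Jak2 and drives secretion of Igf1, which circulates bound to Igfals and the IGF-binding proteins. Ghr read 446 and 503 FPKM in Normal and 257 and 207 FPKM in AAV-Ctrl, a fall of 2.05-fold (log2 difference -1.04 ± 0.16 SE, adjusted p = 0.0166 by limma), and Igfals read 90.1 and 78.8 FPKM in Normal and 38.6 and 29.3 FPKM in AAV-Ctrl. Jak2 rose by 1.95-fold, though not with centring. Igf1 itself, at 309 and 326 FPKM in Normal and 235 and 267 FPKM in AAV-Ctrl, lay lower without overlap but did not pass (adjusted p = 0.137). The binding proteins split: Igfbp2 read 295 and 318 FPKM in Normal and 109.6 and 103 FPKM in AAV-Ctrl and Igfbp4 read 1454 and 1530.3 FPKM in Normal and 837 and 722 FPKM in AAV-Ctrl, both falls, while Igfbp1, which fasting and stress induce in liver, read 15.2 and 24.8 FPKM in Normal and 55.5 and 146 FPKM in AAV-Ctrl and rose. The feedback genes Socs2, at 24.1 and 30.7 FPKM in Normal and 3.63 and 19.1 FPKM in AAV-Ctrl, and Cish, at 1.89 and 20.7 FPKM in Normal and 0.837 and 16.2 FPKM in AAV-Ctrl, did not pass. Cish differed more within each group than between the group means.

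Of 29 transcription factors that set hepatocyte identity 0 fell by limma or by limma-voom, with 3 lower and 2 higher at an unadjusted p under 0.05. The 1 that rose was Gata6, at 2.03 and 1.39 FPKM in Normal and 4.47 and 3.67 FPKM in AAV-Ctrl, and it did not pass with centring. With centring 4 fell, Cebpb, Nr1h4 (FXR), Nr1i2 (PXR) and Creb3l3, with adjusted p from 0.0393 to 0.0497. The median was -0.13, against 0.362 over all genes. Cebpa, at 191 and 167 FPKM in Normal and 134 and 116 FPKM in AAV-Ctrl, did not pass. Among 29 central vein Wnt signals and targets 2 rose and 4 fell (0 and 7 with centring). The falls included Glul, the glutamine synthetase of the hepatocytes next to the central vein, at 895 and 951 FPKM in Normal and 79.3 and 59.3 FPKM in AAV-Ctrl, a fall of 13.3-fold, and Cyp2e1, which fell by 12.1-fold from 5999 and 6342 FPKM. The Wnt feedback genes Axin2, at 4.74 and 2.19 FPKM in Normal and 6.14 and 3.37 FPKM in AAV-Ctrl, Rnf43, at 11.3 and 13.7 FPKM in Normal and 18.7 and 12.9 FPKM in AAV-Ctrl, and Notum, at 9.01 and 14 FPKM in Normal and 7.79 and 6.07 FPKM in AAV-Ctrl, did not pass, and of these Notum fell with centring (adjusted p = 0.037). Among 21 periportal genes 3 rose and 3 fell (1 and 5 with centring). Apoa4, an apolipoprotein of lipid transport, read 4.56 and 4.01 FPKM in Normal and 61.6 and 141 FPKM in AAV-Ctrl and rose, and the periportal cytochrome Cyp2f2 read 1084 and 910.0 FPKM in Normal and 942 and 868 FPKM in AAV-Ctrl and did not pass.

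ER genes rose widely. The ER folds secreted and membrane proteins with chaperones such as Hspa5 (BiP) and Hsp90b1 (Grp94), and when unfolded protein builds up, the sensors Atf6, Ire1 and Perk raise those chaperones through promoter elements and translation control. Of 38 ER chaperones, translocon and degradation genes 29 rose, 6 of them also with centring, when 1 fell, and the median was 0.84. Without its most abundant member, P4hb, the list summed to 6009 and 5035 FPKM in Normal and to 9281 and 11436 FPKM in AAV-Ctrl, without overlap.

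The promoters of several of these genes carry the ER stress element, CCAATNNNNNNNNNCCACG, to which the transcription factor NF-Y and Atf6 bind. They are shown because this element is the best-known promoter signal of ER stress and the 5 genes shown are among its carriers that rose. The 60 bases around a match are given 5′ to 3′ on the strand of the gene, from RefSeq promoters of GRCm38.p6, with both ends of the element in capitals.
Hspa5: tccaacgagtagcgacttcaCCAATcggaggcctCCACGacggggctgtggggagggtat
Creld2: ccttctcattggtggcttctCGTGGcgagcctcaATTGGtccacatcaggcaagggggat
Hsp90b1: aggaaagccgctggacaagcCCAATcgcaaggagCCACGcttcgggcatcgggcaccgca
Pdia6: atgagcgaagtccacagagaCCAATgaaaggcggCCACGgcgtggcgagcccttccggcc
Syvn1: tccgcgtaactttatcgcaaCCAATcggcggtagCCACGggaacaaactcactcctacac
These stretches are chr2:34772005-34772064 on the plus strand for Hspa5, chr15:88819500-88819559 (plus) for Creld2, chr10:86705617-86705676 (minus) for Hsp90b1, chr12:17266471-17266530 (plus) for Pdia6 and chr19:6046512-6046571 (plus) for Syvn1. The matches begin 65, 126, 212, 98 and 44 bases before the annotated start, and that of Creld2 reads on the opposite strand. Searched on both strands of windows of 300 bases, 250 before and 50 after the start, the element was found in 39 of 32851 windows (0.119%), belonging to 37 of 27025 genes (0.137%). Of the 38 ER genes tested, 30 had a window in the RefSeq table and 9 of these held the element, 7 of them risen. The list was chosen as ER genes, so this excess is no test, and 29 of the 38 rose with or without the element. A match describes letters in a window and does not show binding.

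Among the 5 genes shown, Creld2, an ER disulfide protein, read 36.6 and 22.9 FPKM in Normal and 128 and 175 FPKM in AAV-Ctrl, the widest of the 5 at 5.1-fold (log2 difference 2.33 ± 0.26 SE, adjusted p = 0.0119 by limma). Hspa5 read 516 and 478 FPKM in Normal and 1137 and 1822 FPKM in AAV-Ctrl, with an adjusted p of 0.0195 and, with centring, of 0.0499. Hsp90b1 read 354 and 288 FPKM in Normal and 698 and 908 FPKM in AAV-Ctrl. Pdia6, a disulfide isomerase, read 386 and 283 FPKM in Normal and 685 and 765 FPKM in AAV-Ctrl, and Syvn1, the ubiquitin ligase of ER-associated degradation, read 29.4 and 33.7 FPKM in Normal and 56.1 and 86.8 FPKM in AAV-Ctrl. Each of the 5 rose and was higher in both AAV-Ctrl libraries than in both Normal ones. Hsp90b1, Pdia6 and Syvn1 did not pass with centring. Calr, at 1321 and 951 FPKM in Normal and 1726 and 1832 FPKM in AAV-Ctrl, and Derl3, at 47.4 and 8.35 FPKM in Normal and 58.4 and 73.5 FPKM in AAV-Ctrl, hold the element too and did not pass.

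Other rises in the list were Manf, a secreted survival factor of ER stress, at 60.9 and 55.5 FPKM in Normal and 154 and 220.0 FPKM in AAV-Ctrl, and Hyou1, an ER chaperone, at 64.4 and 65.5 FPKM in Normal and 166 and 239 FPKM in AAV-Ctrl. Sdf2l1, Pdia4 and Dnajb9, all partners of Hspa5, rose by 3.07-fold, 2.65-fold and 2.61-fold, without centring. Not all ER stress genes moved this way. Xbp1, whose spliced form drives ER enlargement, read 387 and 289.9 FPKM in Normal and 175 and 304 FPKM in AAV-Ctrl, and Herpud1, a degradation factor, read 311 and 309 FPKM in Normal and 180.3 and 269.6 FPKM in AAV-Ctrl, and neither passed. The table gives 1 value per gene, so the splicing of Xbp1 was not analysed here.

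Part of the genes of vesicle transport rose. Of 34 genes of COPII, COPI and Golgi transport 16 rose (47.1%, against 20.2% of all genes tested), with a median of 0.52. With centring 2 rose, near the 4.72% of all genes. Tmed3, a cargo receptor of the p24 family, read 10.1 and 9.51 FPKM in Normal and 32.7 and 38.4 FPKM in AAV-Ctrl. Kdelr3, a receptor that returns chaperones to the ER, went from 0.0989 and 0 to 3.4 and 3.27 FPKM, and the coat genes Sec24d and Copg1 rose by 1.97-fold and 1.85-fold, these 2 without centring.

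Protein synthesis genes were read in 3 lists. Of 78 cytosolic ribosomal proteins 18 rose, 0 with centring (3 at an unadjusted p under 0.05), and their median was 0.46 against 0.362. Rplp0, of the ribosomal stalk, read 528 and 440.3 FPKM in Normal and 728 and 800.2 FPKM in AAV-Ctrl. Ribosome assembly factors counted 17 rises among 35 with a median of 0.61, and 2 with centring, Nop56 and Nop58 of the nucleolar methylation complex. Nop58 read 11.2 and 12.5 FPKM in Normal and 27.1 and 40.7 FPKM in AAV-Ctrl and Nop56 read 18.4 and 18.8 FPKM in Normal and 38 and 47.2 FPKM in AAV-Ctrl. Of 23 aminoacyl-tRNA synthetases 16 rose, 0 with centring (5 at an unadjusted p under 0.05), the median was 0.61, and Wars (tryptophan) read 11 and 9.61 FPKM in Normal and 22.8 and 29.3 FPKM in AAV-Ctrl. Myc, a driver of ribosome production, differed widely within Normal, at 1.04 and 27.1 FPKM in Normal and 10.5 and 33.4 FPKM in AAV-Ctrl, and did not pass. The constitutive proteasome had 1 rise among 31 subunits, Psmd8, without centring, and a median of 0.15.

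Lysosomal genes rose in 24 of 54 cases, 5 with centring, when 1 fell. Cd63, a membrane protein of late endosomes, went from 1.95 and 1.68 to 38.8 and 62.9 FPKM, a rise of 28-fold (log2 difference 4.16 ± 0.28 SE, adjusted p = 0.00478 by limma). Ctss, a protease of antigen-presenting cells, and Cd68, a lysosomal protein of macrophages, rose by 10.2-fold and 10.3-fold. Lamp1, found in every cell's lysosomes, read 426 and 360.1 FPKM in Normal and 418 and 381 FPKM in AAV-Ctrl and did not pass. The risen genes named here are also read from macrophages, whose genes rose in the same libraries, and their part was not tested. Autophagy genes gave 3 rises and 3 falls among 24 (0 and 6 with centring). The initiating kinase Ulk1 read 70 and 86.1 FPKM in Normal and 44.7 and 37.9 FPKM in AAV-Ctrl, Gabarapl1, a membrane anchor of autophagosomes, read 256 and 244 FPKM in Normal and 119.9 and 89.5 FPKM in AAV-Ctrl, and Atg14 fell by 1.83-fold. The cargo receptor Sqstm1 (p62) read 389 and 279 FPKM in Normal and 533 and 575 FPKM in AAV-Ctrl and rose, as did the lysosomal regulators Mitf, by 3.36-fold, and Tfe3, by 1.86-fold. Sqstm1, Mitf and Tfe3 did not pass with centring.

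The integrated stress response lowers general translation and raises Atf4 and its targets, among them amino acid transporters and the enzymes that make serine and asparagine. Its list held 15 rises among 27, with 10 of them also passing with centring, when 1 gene fell, and a median of 1.49. Atf3, a stress-induced repressor, went from 0.57 and 0.626 to 31 and 32.4 FPKM (log2 difference 4.35 ± 0.15 SE, adjusted p = 0.000367 by limma). Nupr1, a small chromatin protein of stressed cells, went from 0.953 and 0.856 to 42 and 55.7 FPKM. In both genes the replicates lay close together and far from the other group.

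The serine pathway was low in Normal and present in AAV-Ctrl. Phgdh, its first enzyme, read 0.154 and 0.507 FPKM in Normal and 8.47 and 18.8 FPKM in AAV-Ctrl, and Psat1, the next, read 0.907 and 0.441 FPKM in Normal and 15.3 and 22.4 FPKM in AAV-Ctrl. Psph, the last, read 4.87 and 3.62 FPKM in Normal and 7.87 and 14.3 FPKM in AAV-Ctrl and did not pass (adjusted p = 0.0568). Asns, which makes asparagine, read 3.4 and 5.85 FPKM in Normal and 29.5 and 44.5 FPKM in AAV-Ctrl. Aldh18a1, which starts proline synthesis from glutamate, read 0.757 and 0.51 FPKM in Normal and 9.68 and 10.2 FPKM in AAV-Ctrl. For the cystine importer Slc7a11 both Normal libraries were listed at 0 and AAV-Ctrl at 5.4 and 14.6 FPKM, with an adjusted p of 0.0134 in limma, and its partner Slc3a2 rose by 3.41-fold. Atf4 itself, at 64.2 and 49.7 FPKM in Normal and 69.9 and 106 FPKM in AAV-Ctrl, and the secreted stress hormones Fgf21, at 1.27 and 0.527 FPKM in Normal and 2.23 and 10.1 FPKM in AAV-Ctrl, and Gdf15, at 7.54 and 2.4 FPKM in Normal and 9.92 and 11.4 FPKM in AAV-Ctrl, did not pass.

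NRF2 (Nfe2l2) is the transcription factor that senses electrophiles and raises glutathione synthesis, quinone reduction and NADPH production. Of 28 genes on its list 20 rose, 7 also with centring, with a median of 0.82. Nqo1, a quinone reductase and standard NRF2 target, read 2.88 and 1.4 FPKM in Normal and 14.8 and 13.8 FPKM in AAV-Ctrl. Gclc, the catalytic subunit of glutathione synthesis, read 172 and 212 FPKM in Normal and 390.5 and 498 FPKM in AAV-Ctrl, whereas its modifier subunit Gclm read 171 and 181 FPKM in Normal and 188 and 182 FPKM in AAV-Ctrl, nearly level. Cbr3, a carbonyl reductase, went from 0.0497 and 0.446 to 24.3 and 9.45 FPKM. Hmox1, the heme oxygenase, read 13.5 and 8.59 FPKM in Normal and 77.4 and 77.4 FPKM in AAV-Ctrl, and Nfe2l2 itself rose by 1.62-fold. Gclc, Hmox1 and Nfe2l2 did not pass with centring. Osgin1, at 529 and 207 FPKM in Normal and 242 and 429 FPKM in AAV-Ctrl, did not pass. The core of the antioxidant response element, TGACNNNGC, was found in 10 of the 23 NRF2 list genes with a window, 6 of them risen, and in 14.0% of all genes with one. The list was chosen as genes of NRF2, so this excess is no test. Since 20 of the 28 rose in any case, no link of the element to the rise is drawn.

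NADPH enzymes of the pentose phosphate pathway rose at the oxidative steps. G6pdx, the first, read 4.88 and 4.55 FPKM in Normal and 16.7 and 20.6 FPKM in AAV-Ctrl, and Pgd, a later one, read 24.4 and 23.5 FPKM in Normal and 82.8 and 97.6 FPKM in AAV-Ctrl, a rise of 3.76-fold. Pgls, in between, at 46.8 and 39.4 FPKM in Normal and 43 and 40.7 FPKM in AAV-Ctrl, and the ER form H6pd, at 269 and 175 FPKM in Normal and 203 and 201 FPKM in AAV-Ctrl, did not pass. Of the 10 genes of this list 4 rose, 2 with centring, and the median, 0.35, was level with all genes. Among 28 antioxidant enzymes and selenoproteins 4 rose and 3 fell (0 and 5 with centring).

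Metallothioneins bind zinc and copper and rise with metals, glucocorticoids and inflammation. Mt1 read 5.17 and 4.15 FPKM in Normal and 59.6 and 112 FPKM in AAV-Ctrl, a rise of 18.4-fold (log2 difference 3.88 ± 0.32 SE, adjusted p = 0.00613 by limma), and Mt2 was listed at 0 in all 4 libraries. Such a 0 may be a failed estimate, so nothing is said of Mt2. The zinc importers Slc39a10 and Slc39a6 rose by 3.07-fold and 5.05-fold, while Slc39a14, the importer that inflammation raises in liver, read 143 and 168 FPKM in Normal and 146 and 153 FPKM in AAV-Ctrl and did not pass. Of 32 iron and heme genes 13 rose, 2 with centring, when 1 fell. The transferrin receptor Tfrc read 13.9 and 19.5 FPKM in Normal and 43.6 and 37.4 FPKM in AAV-Ctrl, the ferritin chain Fth1 read 1325 and 1122 FPKM in Normal and 2233 and 2617 FPKM in AAV-Ctrl and Ftl1 rose by 1.71-fold. Slc39a10, Fth1 and Ftl1 did not pass with centring. The iron hormone Hamp, at 1281 and 1594 FPKM in Normal and 1548 and 1464 FPKM in AAV-Ctrl, had overlapping groups.

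The transcription factor p53 raises genes that halt the cycle or kill the cell after DNA damage. Of 32 of its targets 14 rose, 5 with centring. Phlda3, a repressor of Akt, read 0.604 and 0.542 FPKM in Normal and 4.15 and 8.09 FPKM in AAV-Ctrl, Ccng1, the cyclin G1, read 12.6 and 12.3 FPKM in Normal and 28.6 and 35.9 FPKM in AAV-Ctrl and Mdm2, the ligase that removes p53, read 15.4 and 19.8 FPKM in Normal and 34.9 and 43.6 FPKM in AAV-Ctrl. The death genes among p53 targets, Bax at 8.42 and 11.6 FPKM in Normal and 16 and 33.1 FPKM in AAV-Ctrl and Bbc3 at 11.2 and 10.2 FPKM in Normal and 12.8 and 10.7 FPKM in AAV-Ctrl, did not pass. Among 35 genes of cell death and survival 8 rose and 1 fell (3 and 1 with centring). Tnfrsf12a, the receptor of TWEAK, read 6.51 and 6.55 FPKM in Normal and 26.5 and 63.1 FPKM in AAV-Ctrl, and Mlkl, the pore former of necroptosis, rose by 3.95-fold. Bik, a BH3 protein, was the one to fall, at 7.02 and 7.65 FPKM in Normal and 3.54 and 3.59 FPKM in AAV-Ctrl. Mdm2 and Mlkl did not pass with centring.

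Of 23 AP-1 and immediate early factors 8 rose, 5 with centring, when 1 fell. Klf6, a zinc finger factor of liver injury, read 1.89 and 3.29 FPKM in Normal and 13.8 and 21.3 FPKM in AAV-Ctrl, and Klf4, Fosl1 and Runx1 rose by 7.26-fold, 36.5-fold and 8.73-fold. The fastest members had no common direction, with Fos at 1.32 and 3.67 FPKM in Normal and 2.94 and 10.8 FPKM in AAV-Ctrl, Egr1 at 3.91 and 7.4 FPKM in Normal and 3.29 and 23.5 FPKM in AAV-Ctrl and Junb at 60.2 and 38.7 FPKM in Normal and 17.5 and 32.8 FPKM in AAV-Ctrl, and none of the 3 passed. Fosl1 and Runx1 did not pass with centring. Heat shock chaperones rose in 8 of 18 cases, 1 with centring, Hsp90aa1, at 146 and 119 FPKM in Normal and 321 and 418 FPKM in AAV-Ctrl.

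Part of the DNA replication genes rose, and few mitosis genes passed the test, a contrast that was not itself tested. Before DNA is copied the Mcm2 to Mcm7 helicase is loaded by Cdt1, and mitosis then needs cyclin B, Cdk1, kinesins and Top2a. Of 35 replication genes 12 rose and 1 fell, with 4 of the rises also passing with centring. Mcm2 read 4.19 and 1.88 FPKM in Normal and 22 and 21.6 FPKM in AAV-Ctrl and Mcm7 read 15.3 and 10.9 FPKM in Normal and 33.1 and 36 FPKM in AAV-Ctrl. Cdt1 read 2.08 and 1.13 FPKM in Normal and 10 and 9.97 FPKM in AAV-Ctrl, and Rpa2, a single-strand binding protein, read 4.64 and 5.01 FPKM in Normal and 16.4 and 18.4 FPKM in AAV-Ctrl. Each of these 4 rose and was higher in both AAV-Ctrl libraries, and Cdt1 and Rpa2 also passed with centring. Mcm5, at 1.68 and 1.57 FPKM in Normal and 14.5 and 13.5 FPKM in AAV-Ctrl, missed the threshold (adjusted p = 0.0552).

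Mcm10, a replication initiation factor, was the gene of this list that fell, at 67.3 and 91.1 FPKM in Normal and 22.8 and 24.4 FPKM in AAV-Ctrl, a fall of 3.35-fold (log2 difference -1.69 ± 0.28 SE, adjusted p = 0.0193 by limma). Tk1, the thymidine kinase, read 22.4 and 40.8 FPKM in Normal and 23.2 and 15 FPKM in AAV-Ctrl and did not pass. Tk1 overlaps Afmid on the other strand, and with no strand setting stated the reads of the 2 cannot be told apart.

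Of 29 mitosis genes 2 passed. All 29 lay higher, as did 10098 of all 13151 genes, and the median, 1.14, was close to that of the replication genes. Without Cenpa, its most abundant member, the list with its 4 members under the filter summed to 12.3 and 11.48 FPKM in Normal and 73.56 and 70.71 FPKM in AAV-Ctrl. Top2a read 0.741 and 0.591 FPKM in Normal and 9.54 and 9.29 FPKM in AAV-Ctrl (adjusted p = 0.0738), and the 2 that passed were the kinesin Kif23, at 0.375 and 0.521 FPKM in Normal and 3.48 and 2.92 FPKM in AAV-Ctrl, and the kinase Aurka, at 2.18 and 1.81 FPKM in Normal and 4.17 and 6.14 FPKM in AAV-Ctrl, neither of them with centring. Most of these genes lay under 1 FPKM in Normal. Such genes were tested only because AAV-Ctrl reached 1 FPKM, so the filter fixed that they lay higher and raised the median. The cyclin list had 7 rises among 18 (4 with centring, when 2 fell), with Ccnd2, a D-type cyclin, up 4.07-fold, Cdk4, its kinase, up 1.64-fold without centring, and Rbl1, a pocket protein, up 8.1-fold. The scatter of replication and mitosis genes shows all but a few above the diagonal, which the filter fixed for those under 1 FPKM in Normal.

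**Figure D3:**
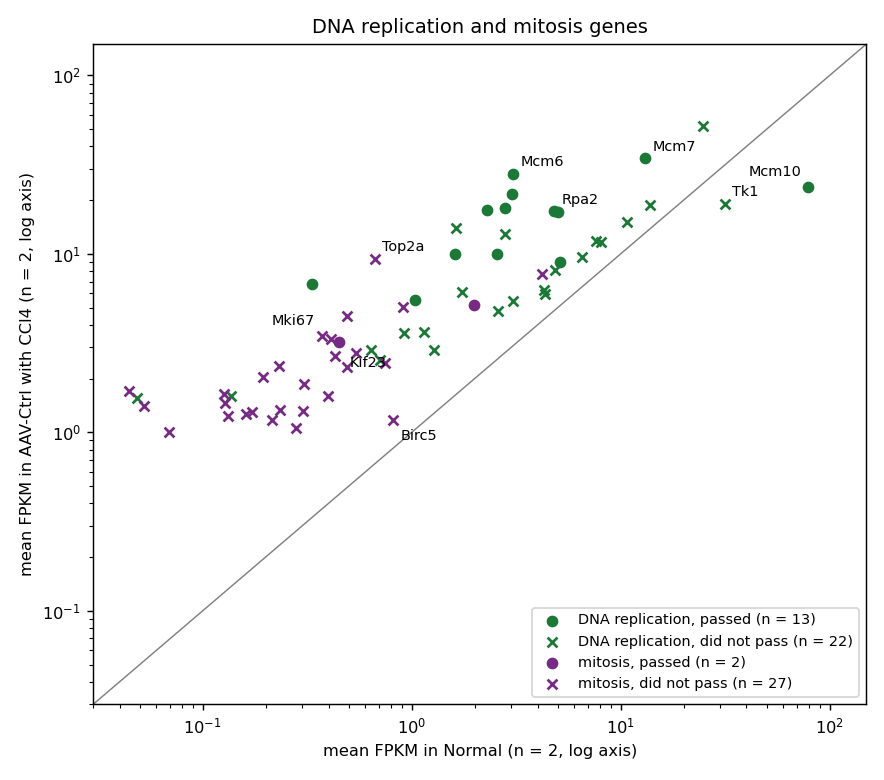
Mean FPKM in AAV-Ctrl against mean FPKM in Normal (n = 2 libraries each, log axes) for the 35 replication genes (green) and 29 mitosis genes (purple), with filled points for those past an adjusted p of 0.05 and crosses for the others. Points above the grey diagonal are higher in AAV-Ctrl, Mcm10 and Tk1 lie below it, and most mitosis genes sit at the left, under 1 FPKM in Normal. There the filter of 1 FPKM leaves only points above the diagonal.

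Cytoskeletal genes rose in large numbers. Of 55 actin, myosin and actin regulator genes 39 rose, 21 with centring, with a median of 1.02. Capg, a capping protein of motile cells, went from 1.46 and 1.37 to 33 and 40.4 FPKM. Tmsb4x, which holds actin monomers, read 68.3 and 54.3 FPKM in Normal and 434 and 483 FPKM in AAV-Ctrl, and Flna, a crosslinker, read 6.57 and 7.24 FPKM in Normal and 44.2 and 56.2 FPKM in AAV-Ctrl. Of the small GTPases Rhoa, at 66.9 and 56.9 FPKM in Normal and 83 and 75.4 FPKM in AAV-Ctrl, and Rac1, at 59.8 and 54.9 FPKM in Normal and 73.1 and 71.4 FPKM in AAV-Ctrl, did not pass. Of 22 tubulins and microtubule partners 12 rose, 7 with centring. Tubb2a read 21.6 and 9.63 FPKM in Normal and 181 and 193 FPKM in AAV-Ctrl, a rise of 12-fold (log2 difference 3.60 ± 0.33 SE, adjusted p = 0.00758 by limma), Tubb6 rose by 6.04-fold, and Dynll1, a dynein light chain, read 12.8 and 10 FPKM in Normal and 56.9 and 63.1 FPKM in AAV-Ctrl. These genes are expressed by many cell types, and the division between hepatocytes and other cells was not tested.

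Annexins, which bind membranes on calcium, and the calcium-binding S100 proteins rose in 9 of 19 cases, 8 with centring, and 2 fell. Anxa2 read 5.88 and 4.25 FPKM in Normal and 94 and 175 FPKM in AAV-Ctrl, a rise of 26.6-fold (log2 difference 4.43 ± 0.34 SE, adjusted p = 0.00602 by limma). Anxa5, which binds phosphatidylserine on dying cells, read 48.3 and 52.2 FPKM in Normal and 191 and 268 FPKM in AAV-Ctrl, and S100a11 read 6.56 and 4.5 FPKM in Normal and 53.8 and 92.9 FPKM in AAV-Ctrl. Anxa7, at 82.3 and 85.1 FPKM in Normal and 94.6 and 108 FPKM in AAV-Ctrl, and Anxa11, at 4.3 and 4.95 FPKM in Normal and 4.54 and 3.91 FPKM in AAV-Ctrl, did not pass. The members that fell were S100a1, at 122 and 118 FPKM in Normal and 78.1 and 74 FPKM in AAV-Ctrl, and S100a13, at 13.3 and 14.8 FPKM in Normal and 7.27 and 9.24 FPKM in AAV-Ctrl. Anxa10 and S100a4 were listed at 0 in all 4 libraries.

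Keratins 8 and 18 are the pair that hepatocytes use, and keratins 7 and 19 mark bile ducts. Krt8 read 113 and 86.5 FPKM in Normal and 233 and 421 FPKM in AAV-Ctrl and Krt18 read 143 and 101 FPKM in Normal and 268 and 535 FPKM in AAV-Ctrl, and both rose without centring. Krt19, at 1.52 and 0.596 FPKM in Normal and 1.8 and 2.5 FPKM in AAV-Ctrl, and Krt7, at 0.274 and 0.492 FPKM in Normal and 0.992 and 1.07 FPKM in AAV-Ctrl, did not pass. Ly6d, a surface protein first known from lymphocytes and keratinocytes, had one of the 15 largest rises of all genes that passed, from 0.375 and 0.337 to 52.3 and 114 FPKM (log2 difference 5.85 ± 0.37 SE, adjusted p = 0.00478 by limma). In the list of keratins, junctions and epithelial surface genes 10 of 31 rose, 3 with centring. Of 10 fetal and imprinted liver genes 6 rose, among them Afp, the fetal albumin relative, at 4.38 and 4.34 FPKM in Normal and 9.69 and 11.1 FPKM in AAV-Ctrl, and Gpc3 by 4.13-fold. With centring 2 of the 6 also passed and 1 gene of the list fell.

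For several reactions liver has its own enzyme and other tissues another. In the 2 pairs shown here, chosen after their values were seen, the form of other tissues rose from a low level, while the liver form did not pass. Pyruvate kinase of liver, Pklr, read 85 and 182 FPKM in Normal and 114 and 75.9 FPKM in AAV-Ctrl, with overlapping groups, and Pkm read 9.56 and 8.59 FPKM in Normal and 103 and 124 FPKM in AAV-Ctrl. Liver glycogen phosphorylase, Pygl, read 270.2 and 274 FPKM in Normal and 273 and 182 FPKM in AAV-Ctrl, against 2.71 and 2.4 FPKM in Normal and 22.3 and 20.7 FPKM in AAV-Ctrl for the brain form Pygb. In both pairs the groups of the second form did not overlap and it rose by the test, with an adjusted p in limma of 0.0136 for Pkm and 0.0138 for Pygb. The hexokinases Hk1, at 1.04 and 1.71 FPKM in Normal and 6.94 and 6.15 FPKM in AAV-Ctrl, and Hk2, at 0.574 and 0.551 FPKM in Normal and 4.06 and 3.59 FPKM in AAV-Ctrl, which most tissues use, rose as well, though not with centring.

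Forms of 2 redox enzymes changed in opposite directions. Nox4, the NADPH oxidase of parenchymal and mesenchymal cells, read 20 and 18.9 FPKM in Normal and 8.27 and 7.09 FPKM in AAV-Ctrl and fell by 2.53-fold, while Cybb (Nox2), the phagocyte form, read 7.14 and 4.27 FPKM in Normal and 56.1 and 45.3 FPKM in AAV-Ctrl and rose by 8.88-fold. The phagocyte subunits Cyba, Ncf1, Ncf4 and Rac2 rose as well, by 7.63-fold, 7.13-fold, 6.44-fold and 5.86-fold. Cybb, Cyba and Rac2 did not pass with centring. Gpx1, the cytosolic glutathione peroxidase, read 2495 and 1858 FPKM in Normal and 1077 and 1101 FPKM in AAV-Ctrl and fell, and the secreted Gpx3 read 3.4 and 2.98 FPKM in Normal and 21.2 and 14.2 FPKM in AAV-Ctrl and rose, though not with centring. Several of the forms that rose are expressed by macrophages, whose marker genes rose in the same libraries. Without Apoe, their most abundant gene, the macrophage list summed to 192.7 and 151.1 FPKM in Normal and to 1380.4 and 1430.5 FPKM in AAV-Ctrl. Their part in these pairs was not tested.

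**Figure D4:**
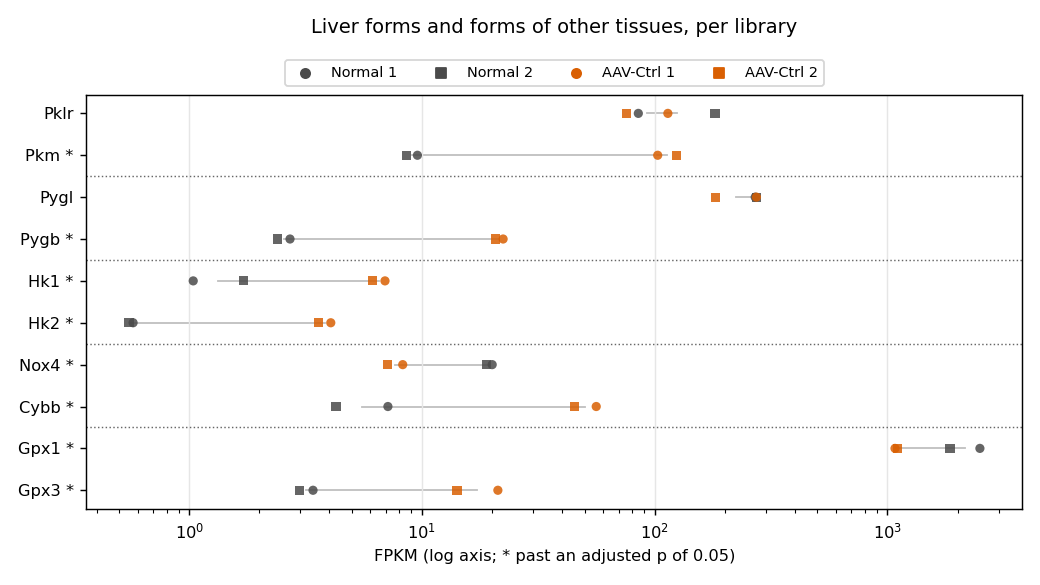
FPKM (log axis) of liver forms of enzymes and of the forms used by other tissues, with 2 pairs of redox enzymes at the bottom, in each Normal (grey) and AAV-Ctrl (orange) library, with a grey line between the group means and dotted lines between sets. An asterisk marks genes past a limma adjusted p of 0.05. Pkm, Pygb, Hk1 and Hk2 move to the right from Normal to AAV-Ctrl, and Pklr and Pygl do not pass.

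Glycolysis as a whole had 10 rises and 2 falls among 33 genes, with 4 and 2 with centring. Aldoa, the aldolase of muscle and most cells, read 57.6 and 67 FPKM in Normal and 114 and 126 FPKM in AAV-Ctrl and rose, though not with centring. Aldoc, the aldolase of brain, went the other way at 11.1 and 14.2 FPKM in Normal and 7.21 and 5.3 FPKM in AAV-Ctrl, a fall of 2.02-fold (adjusted p = 0.0328 by limma). Among pyruvate dehydrogenase kinases Pdk4 went from 0.906 and 0.954 to 12.9 and 5.1 FPKM and Pdk2 fell by 1.93-fold. Gluconeogenesis and glycogen counted 5 rises (17.9%) and 2 falls (7.1%) among 28, against 20.2% and 2.55% of all genes tested. With centring 2 rose and 3 fell. Gys2, the liver glycogen synthase, read 119.9 and 252 FPKM in Normal and 67.2 and 49.8 FPKM in AAV-Ctrl, and G6pc, which releases glucose, read 168 and 95.9 FPKM in Normal and 119 and 45.7 FPKM in AAV-Ctrl and did not pass.

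Clock genes changed in both directions. The activators Arntl (Bmal1), Clock and Npas2 bind E-boxes and drive Per, Cry, the Nr1d repressors and the output factors Dbp and Tef, and in mouse liver the levels of most of them swing over the day. Arntl read 1.65 and 0.319 FPKM in Normal and 9.92 and 10.2 FPKM in AAV-Ctrl, Npas2 read 0.134 and 0.0241 FPKM in Normal and 3.53 and 4.99 FPKM in AAV-Ctrl and Clock read 8.06 and 4.68 FPKM in Normal and 15.4 and 16.6 FPKM in AAV-Ctrl, and all 3 rose. Dbp read 55.4 and 111 FPKM in Normal and 6.16 and 1.9 FPKM in AAV-Ctrl, a fall of 20.6-fold (log2 difference -4.12 ± 0.54 SE, adjusted p = 0.0138 by limma), Tef read 98.8 and 209.7 FPKM in Normal and 38.5 and 24.7 FPKM in AAV-Ctrl and Nr1d2 read 40.2 and 60.1 FPKM in Normal and 23.8 and 21.2 FPKM in AAV-Ctrl. The repressor Cry1 rose, at 3.66 and 8.53 FPKM in Normal and 16.6 and 18.8 FPKM in AAV-Ctrl. In each of these genes the groups did not overlap, as in 73.4% of all genes tested. Clock and Cry1 did not pass with centring.

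The repressors Per1, Per2 and Ciart differed more between the Normal libraries than between the groups. Per2 read 6.52 and 27.6 FPKM in Normal and 8.44 and 7.89 FPKM in AAV-Ctrl, Per1 read 1.39 and 7.6 FPKM in Normal and 5.28 and 7.14 FPKM in AAV-Ctrl, and Ciart read 3.3 and 18.9 FPKM in Normal and 1.48 and 1.27 FPKM in AAV-Ctrl, and none of the 3 passed. Per3, at 4.71 and 22.7 FPKM in Normal and 2.35 and 1.22 FPKM in AAV-Ctrl, had an adjusted p of 0.0573. Normal replicate 2 was the highest of the 4 libraries for Per1, Per2, Per3, Ciart, Dbp, Tef and Nr1d2 and the lowest for Arntl, Npas2 and Clock. The labels do not state the hour of collection, so a difference in hour and an effect of treatment cannot be told apart. Of 20 clock genes, 4 rose and 3 fell, with a median of -0.61 (2 and 5 with centring).

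**Figure D5:**
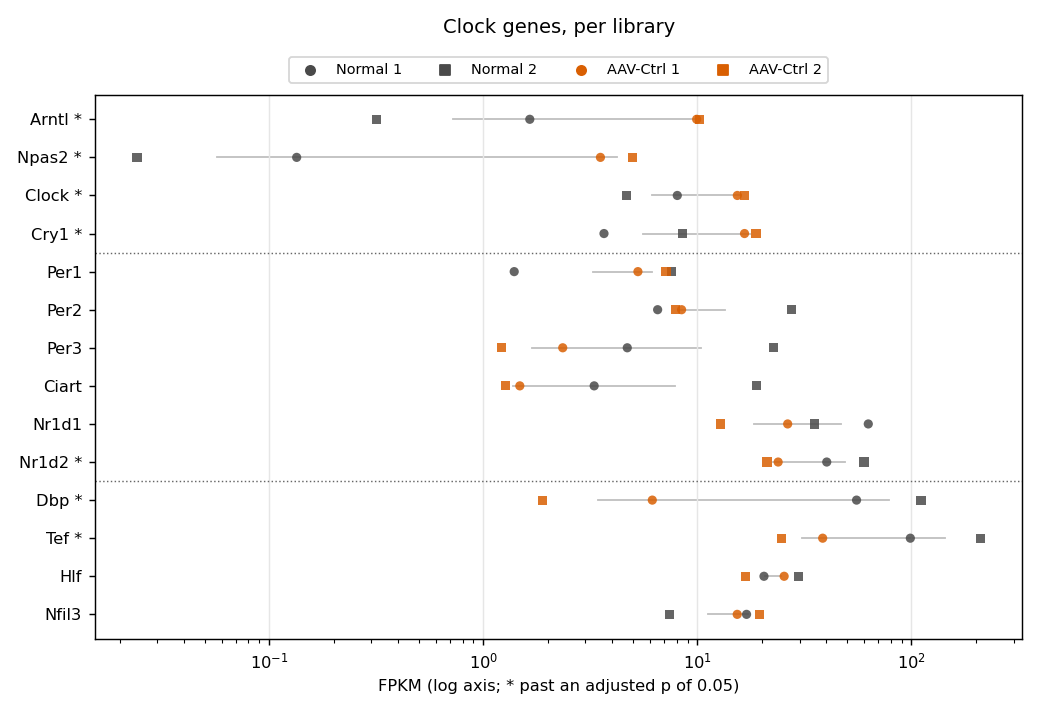
FPKM (log axis) of clock genes in each Normal (grey) and AAV-Ctrl (orange) library, with a grey line between the group means and dotted lines between activators with Cry1, repressors, and output factors. An asterisk marks genes past a limma adjusted p of 0.05. Arntl, Npas2, Clock and Cry1 are higher in AAV-Ctrl, Dbp, Tef and Nr1d2 are lower, and the Normal libraries lie far apart for Per1, Per2, Per3 and Ciart.

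Of the 7 clock genes past the threshold, 2 hold the E-box hexamer CACGTG in the RefSeq window, Cry1 and Tef, one risen and one fallen, and their sites are given for that contrast, 5′ to 3′ on the strand of the gene with the hexamer in capitals.
Cry1: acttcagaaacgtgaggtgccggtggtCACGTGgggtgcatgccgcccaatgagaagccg
Tef: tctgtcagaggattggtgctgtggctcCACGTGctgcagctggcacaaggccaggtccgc
The first is chr10:85185082-85185141 on the minus strand and the second chr15:81802519-81802578 on the plus strand (GRCm38.p6), and the hexamers begin 60 and 127 bases before the starts. Of 17 clock genes with a window 5 held the hexamer, against 8.09% of all genes with one and 7.15% of all windows. The list was chosen as clock genes, so this excess is no test.

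Lipid genes differed by step. Cholesterol synthesis and uptake counted 13 rises among 31, 1 with centring. Sqle, the squalene epoxidase, read 17.2 and 16.9 FPKM in Normal and 38.7 and 44.5 FPKM in AAV-Ctrl, and Idi1 and Mvd rose by 1.77-fold and 2.67-fold, none of the 3 with centring. Fatty acid synthesis genes differed widely between replicates: Fasn read 73.7 and 243 FPKM in Normal and 244 and 135 FPKM in AAV-Ctrl, Scd1 read 447 and 774 FPKM in Normal and 1865 and 599 FPKM in AAV-Ctrl and Srebf1 read 218 and 496 FPKM in Normal and 391 and 218 FPKM in AAV-Ctrl. Lpl, which frees fatty acids from circulating triglyceride and is low in adult hepatocytes, read 8.59 and 6.44 FPKM in Normal and 83.4 and 80.1 FPKM in AAV-Ctrl, a rise of 10.9-fold that did not pass with centring.

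Triglyceride storage had 5 rises (17.9%) and 4 falls (14.3%) among 28, against 20.2% and 2.55% of all genes tested. With centring 2 rose and 6 fell. Dgat2, the last enzyme of triglyceride synthesis in liver, read 522 and 648 FPKM in Normal and 369 and 297 FPKM in AAV-Ctrl, and Pnpla2, the lipase that starts its breakdown, read 42.9 and 41.1 FPKM in Normal and 25.3 and 25.2 FPKM in AAV-Ctrl, so that enzymes of both directions fell. Fitm1, a droplet protein, read 14.1 and 8.48 FPKM in Normal and 1.49 and 0.0856 FPKM in AAV-Ctrl. Gpat3, an acyltransferase best known in adipocytes, and Fabp4, a fatty acid binder of adipocytes and macrophages, rose by 8.83-fold and 9.31-fold. The adipocyte genes Adipoq, Retn and Lep were listed at 0 in all 4 libraries. Chka, the choline kinase that starts phosphatidylcholine synthesis, read 10.2 and 8.82 FPKM in Normal and 80.6 and 103 FPKM in AAV-Ctrl, a rise of 9.63-fold (log2 difference 3.13 ± 0.29 SE, adjusted p = 0.00758 by limma), the widest among 13 rises in 36 phospholipid, ether lipid and sphingolipid genes. With centring 2 of these genes rose and 2 fell. Apoa5, an activator of Lpl, read 855 and 678 FPKM in Normal and 425 and 332 FPKM in AAV-Ctrl and fell.

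Of 35 coagulation and fibrinolysis genes 7 rose, about the 20.2% of all genes tested, and 4 fell (5 and 5 with centring). Those that fell were Klkb1 (prekallikrein) at 33.7 and 39.8 FPKM in Normal and 17.9 and 12.5 FPKM in AAV-Ctrl, Proc (protein C) at 399 and 404 FPKM in Normal and 245 and 234 FPKM in AAV-Ctrl, Proz at 272 and 257 FPKM in Normal and 188 and 149 FPKM in AAV-Ctrl and F7 at 66.7 and 65.9 FPKM in Normal and 50.3 and 42.2 FPKM in AAV-Ctrl. Prothrombin, F2, read 943 and 887 FPKM in Normal and 707 and 671 FPKM in AAV-Ctrl and did not pass. Those that rose included the urokinase Plau, at 0.246 and 0.199 FPKM in Normal and 3.95 and 7.67 FPKM in AAV-Ctrl, and its receptor Plaur, at 0.534 and 0.295 FPKM in Normal and 4.35 and 8.96 FPKM in AAV-Ctrl. Under quantile normalization the median of this list lay above that of all genes rather than below, as did that of complement.

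Of 29 complement genes 3 rose and 4 fell (2 and 7 with centring). C8b, of the membrane attack complex, read 489 and 402 FPKM in Normal and 199 and 226 FPKM in AAV-Ctrl, and Masp2, of the lectin pathway, fell by 1.48-fold. The anaphylatoxin receptors C3ar1, at 0.292 and 0.359 FPKM in Normal and 7.09 and 8.43 FPKM in AAV-Ctrl, and C5ar1, by 24.9-fold, rose, and both are receptors of myeloid cells. C3, the central component, read 5579 and 4456 FPKM in Normal and 7559 and 8428 FPKM in AAV-Ctrl and did not pass. Secreted plasma proteins had a median of -0.32 with 4 falls and 2 rises among 31 (4 and 1 with centring). Serpina1a, an antitrypsin gene with near-identical copies, read 2039.6 and 1752 FPKM in Normal and 1069 and 1262 FPKM in AAV-Ctrl.

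Of 25 acute phase genes, which liver makes in response to inflammation, 10 rose, 6 with centring, when 1 fell. Il1rn, the interleukin-1 receptor antagonist, read 1.22 and 0.893 FPKM in Normal and 18.4 and 39.8 FPKM in AAV-Ctrl, and Apcs, the serum amyloid P of mouse, read 111 and 69.6 FPKM in Normal and 303 and 380.0 FPKM in AAV-Ctrl. Orm2, an orosomucoid, read 28.1 and 7.6 FPKM in Normal and 139 and 131 FPKM in AAV-Ctrl, and Saa1, Saa2 and Saa3 rose by 2.94-fold, 7.55-fold and 7.51-fold. These 3 did not pass with centring, and Saa1 and Saa2 are near-identical copies. Haptoglobin, Hp, at 4999 and 3736 FPKM in Normal and 5994 and 8049.6 FPKM in AAV-Ctrl, and the fibrinogen chain Fgb, at 1849.9 and 1193 FPKM in Normal and 1694 and 2319.6 FPKM in AAV-Ctrl, did not pass.

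Signals between cells were read in growth factor, TGF-beta, YAP and cytokine lists. Growth factors and receptors of liver repair gave 8 rises and 1 fall among 31 (2 and 2 with centring). Osmr, the oncostatin M receptor, Pdgfa and Vegfc rose by 7.65-fold, 2.46-fold and 2.94-fold, and Erbb3, a neuregulin receptor of hepatocytes, fell by 1.83-fold. Egfr, at 602 and 269 FPKM in Normal and 154 and 180.3 FPKM in AAV-Ctrl, did not pass. Of 38 TGF-beta and BMP genes 12 rose (31.6%, against 20.2% of all genes tested), and 2 with centring, near the 4.72% of all genes. The 12 included the feedback genes Skil and Smad6 and the activin chain Inhba, by 3.67-fold, 2.53-fold and 3.37-fold. Of 22 YAP/TAZ genes 6 rose, 3 with centring, with Myof up 16.3-fold and Tead1 up 2.61-fold. Pdgfa, Vegfc, Inhba and Smad6 did not pass with centring. The hypoxia list split: Ndrg1 read 3.6 and 2.66 FPKM in Normal and 33.1 and 30.1 FPKM in AAV-Ctrl, and Bnip3, a mitophagy receptor that hypoxia raises, read 92.4 and 124 FPKM in Normal and 52.9 and 32.8 FPKM in AAV-Ctrl and fell.

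Interferon-stimulated genes rose in 22 of 38 cases, 7 with centring, and interferon-gamma GTPases in 10 of 20, 5 with centring. Tgtp1, an interferon-induced GTPase, read 10.7 and 2.41 FPKM in Normal and 73.3 and 138 FPKM in AAV-Ctrl, and Oasl2, Gbp2 and Gbp3 rose by 4.71-fold, 8.21-fold and 4.52-fold. Gbp and Tgtp genes have close copies, so their single values are uncertain. Chemokine ligands gave 9 rises and 1 fall among 19 (3 and 1 with centring). Ccl6, a myeloid chemokine, read 5.51 and 3.54 FPKM in Normal and 91.6 and 116 FPKM in AAV-Ctrl. The neutrophil attractant Cxcl1 was the one that fell, at 36.3 and 24.1 FPKM in Normal and 6.82 and 16 FPKM in AAV-Ctrl. The stromal chemokine Cxcl12 read 94.6 and 117 FPKM in Normal and 112 and 79.3 FPKM in AAV-Ctrl and did not pass.

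Matrix genes rose in large numbers: 14 of 18 collagen chains, 23 of 45 matrix glycoproteins, 19 of 25 matrix proteases and inhibitors and 12 of 18 integrins rose. With centring the rises were 9, 15, 9 and 8 and the falls 0, 1, 1 and 0. Serpinh1, the collagen chaperone of the ER, read 4.68 and 5.65 FPKM in Normal and 64.8 and 64.9 FPKM in AAV-Ctrl, and Nid1, a basement membrane linker, read 0.98 and 1.99 FPKM in Normal and 20.7 and 37.5 FPKM in AAV-Ctrl. Adam8, a protease of myeloid cells, went from 0.135 and 0.0808 to 11.3 and 19 FPKM. Of the matrix genes that hepatocytes also express, Col18a1 read 309 and 291 FPKM in Normal and 254 and 204 FPKM in AAV-Ctrl and Fn1 read 422 and 392 FPKM in Normal and 532 and 636 FPKM in AAV-Ctrl, and neither passed.

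Markers of other liver cell types were read beside these groups. Of 26 monocyte and macrophage genes 20 rose, 17 with centring, and of 19 stellate cell and myofibroblast genes 10 rose, 7 with centring. Stellate genes without Dcn summed to 111.1 and 144.5 FPKM in Normal and 413.0 and 446.9 FPKM in AAV-Ctrl. Of 11 Kupffer cell genes 2 rose and 1 fell (1 and 1 with centring). In this list 10 lay higher, as did 10098 of all 13151 genes, with a median of 0.97. Marco, a scavenger receptor, read 3.36 and 2.29 FPKM in Normal and 218 and 164 FPKM in AAV-Ctrl, a rise of 67.5-fold (log2 difference 5.65 ± 0.72 SE, adjusted p = 0.0137 by limma). The one that fell was the C6 named above, and the resident markers Clec4f, at 45.3 and 40.4 FPKM in Normal and 95.5 and 54.4 FPKM in AAV-Ctrl, Timd4, at 2.18 and 1.88 FPKM in Normal and 6.78 and 2.87 FPKM in AAV-Ctrl, and Vsig4, at 15 and 15.8 FPKM in Normal and 77.2 and 39.5 FPKM in AAV-Ctrl, did not pass. Trem2, a receptor of lipid-laden macrophages, rose from 0.15 and 0.135 to 7.57 and 7.24 FPKM, and Ccr2, the receptor of recruited monocytes, from 0.372 and 0.507 to 7.45 and 9.7 FPKM.

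Other cell types had shorter lists, whose shares are set against the 20.2% risen of all genes tested. Members under 1 FPKM in Normal were tested only because AAV-Ctrl reached 1 FPKM, which can raise these shares. Sinusoidal endothelium counted 4 rises among 15 (26.7%), vascular endothelium 3 among 15 (20.0%) and dendritic cells 4 among 9 (44.4%). T and NK cells counted 3 among 13 (23.1%), cholangiocytes 2 among 9 (22.2%) and neutrophils 2 among 5 (40.0%). B and plasma cells counted 0 among 11 (1 at an unadjusted p under 0.05 and 0 by limma-voom). With centring these counts were 1, 0, 1, 0, 2, 1 and 0. Sinusoidal genes without Stab1 summed to 30.03 and 66.03 FPKM in Normal and 135.0 and 112.2 FPKM in AAV-Ctrl, cholangiocyte genes without Spp1 to 40.31 and 50.23 and to 79.92 and 86.97 FPKM. Of 6 genes of the mesothelium, the cell layer on the liver surface, 4 rose, 0 with centring. Msln read 0.418 and 0.929 FPKM in Normal and 2.99 and 2.97 FPKM in AAV-Ctrl. Upk1b read 0.198 and 0.32 FPKM in Normal and 1.61 and 2.22 FPKM in AAV-Ctrl. Both had Normal means under 1 FPKM, so the filter fixed their direction. The whole mesothelium list of 10 genes summed to only 3.053 and 3.681 FPKM in Normal. Of 5 red blood cell genes 0 passed by limma, 0 by limma-voom and 0 at an unadjusted p under 0.05, with a median of 0.23. Of the exocrine pancreas Prss2 and Amy2a5 were listed at 0 in all 4 libraries, and Cela1, an elastase, fell to 21.2 and 17.3 from 37.3 and 37.3 FPKM. How far these cell types enter the values of genes they share with hepatocytes was not tested.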

How the data were processed

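RNA of 6 mouse liver libraries was sequenced. The deposited values were taken as FPKM, although the file header names no unit: a value times the mean length of a gene's transcripts in GENCODE M21 (GRCm38) gave whole reads of 1 step per library for 96.3% to 96.6% of values, within a tolerance of 0.05 reads. Per the submitters' processing notes, the aligner Bowtie (0.12.2) and the builds mm9 and mm8 were used, with no role stated, and the labels name a TruSeq kit and total RNA. The sources used here do not state the counter, the strand setting, the annotation or any filter. Of 55222 entries 54532 carried an Ensembl identifier, 54495 of which matched GENCODE M21, 690 had no name, and 897 symbols belonged to more than 1 entry. Reads of near-identical genes may have been divided or dropped by steps not stated.

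Genes that averaged 1 FPKM or more in Normal or AAV-Ctrl were fitted as log2(FPKM + 1) by limma-trend (limma 3.58.1, R 4.3.3), over all 6 libraries as 3 groups, so that the spread had 3 residual and 3.281 prior degrees of freedom. Tests were two-sided, with Benjamini-Hochberg adjustment over the 13151 genes and a threshold of 0.05. A gene with a mean under 1 FPKM in 1 group was tested only if the other group reached 1 FPKM, so the filter fixed its direction. A log2 difference understates the change of low genes because of the pseudocount, and folds are ratios of the group means of FPKM. With 2 samples against 2 no exact permutation test can reach 0.05. On recovered reads the chi-squared per gene between replicates was 49.71 in Normal and 57.95 in AAV-Ctrl, so no library repeats another. The depth given bears on counting error only.

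The comparison and the gene lists were chosen with earlier results of these data known. The text names the main genes of each list, the 4 largest rises and 4 largest falls of each list among those past the threshold whose groups did not overlap, and the 15 largest of each direction over all genes and outside the lists with at least 5 FPKM in the higher group. Some names under this rule are left out, and 119 genes outside it were chosen after their values were seen. Alternatives were centring, TPM scaling, quantile normalization, a pseudocount of 0.1, no filter or a filter of 5 FPKM, the 4 libraries alone, a replicate block, limma-voom on recovered reads and leaving out each library. Centring combined with leaving out a library was added after seeing the data. Genome coordinates and promoters are from RefSeq (GRCm38.p6).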

Additional observations from a re-analysis of the deposited data

How the results depend on the processing

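Counts of genes called depended on the processing. The reported 2662 risen and 336 fallen became 621 and 811 with centring, 707 and 570 with quantile normalization, 642 and 621 with a replicate block and centring, and 272 and 62 with no filter, where 26421 genes were tested. TPM scaling (3546 and 320), a pseudocount of 0.1 (2749 and 317), a filter of 5 FPKM (2217 and 309), the 4 libraries alone (3535 and 445), limma-voom on recovered reads (2618 and 298) and the replicate block alone (2071 and 276) stayed within 1.5 times. Leaving out 1 of the 4 compared libraries gave 2 to 35 risen and 4 to 16 fallen, leaving out 1 AAV-shPhpt1 library 3537 to 3545 and 441 to 442, and with centring the 4 fits without a compared library gave 16, 3, 172 and 13 risen and 20, 10, 296 and 25 fallen. The cause of these shifts beyond the fewer samples or added genes was not tested.

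Of the 261 named genes past the threshold, 192 passed with centring, 192 with quantile normalization, 253 with TPM scaling, 238 with limma-voom, 67 with no filter and 4 to 22 without 1 of the 4 libraries. The single change of sign was Sqstm1, at -0.0043 with centring and without Normal replicate 2. Centring shifts every log2 difference by the same amount, so it cannot change a list median relative to all genes. Of 92 such medians, 91 kept their sign with TPM scaling and 83 with quantile normalization. Under the latter the constitutive proteasome, coagulation, complement, apolipoproteins and red blood cells turned from below to above all genes. The replicate numbers did not pair the samples: deviations of libraries with the same number correlated at 0.071, 0.031 and 0.134. With the block, 231 of the 261 named calls passed. Groups of 2 limit what any of these fits can resolve, and genes near 1 FPKM rest on few reads.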

Other observations

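Antigen presentation genes were read in 2 classes. Class II genes, which macrophages, dendritic and B cells carry, had a median log2 difference of 1.72, but 2 of 11 rose, 1 with centring. The chain H2-Aa read 35.5 and 17 FPKM in Normal and 115 and 63.2 FPKM in AAV-Ctrl, and Cd74, the invariant chain, read 39.2 and 20.7 FPKM in Normal and 166 and 93.9 FPKM in AAV-Ctrl. Neither passed, and the lower AAV-Ctrl library was replicate 2 for both. Of the class I and immunoproteasome list 5 of 15 rose, 0 with centring, at a median of 0.87, among them H2-D1, at 683 and 612 FPKM in Normal and 1279 and 1379 FPKM in AAV-Ctrl, and the peptide transporter Tap1, at 25.8 and 12.4 FPKM in Normal and 38.2 and 55.6 FPKM in AAV-Ctrl. H2 genes have close copies, so their single values are uncertain.

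Of 31 genes of IL-1, TNF and IL-6 signalling 16 rose, 6 with centring, when 1 fell. Cd14, the endotoxin co-receptor, read 0.74 and 0.638 FPKM in Normal and 8.83 and 24.7 FPKM in AAV-Ctrl, Vcam1, an adhesion molecule, read 1.48 and 1.79 FPKM in Normal and 23.6 and 19.1 FPKM in AAV-Ctrl and Il1b read 1.27 and 1.45 FPKM in Normal and 5.26 and 7.66 FPKM in AAV-Ctrl. Stat3, at 113 and 70.4 FPKM in Normal and 88.8 and 96.2 FPKM in AAV-Ctrl, and the feedback gene Socs3, at 23.1 and 39.9 FPKM in Normal and 9.08 and 24.8 FPKM in AAV-Ctrl, had overlapping groups. Vcam1 did not pass with centring.

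Retinoid genes had 1 rise and 1 fall among 17 (0 and 1 with centring). Rarres2, the gene of chemerin, read 209.5 and 187 FPKM in Normal and 132 and 79.8 FPKM in AAV-Ctrl and fell, and Rdh11 rose by 1.74-fold without centring. The retinoic acid hydroxylase Cyp26a1 read 21.3 and 70.7 FPKM in Normal and 7.06 and 8.95 FPKM in AAV-Ctrl, with an adjusted p of 0.0574. In the ductular and Notch list 7 of 17 rose, 3 with centring, among them Sox9, a factor of bile duct and progenitor cells, at 1.06 and 0.495 FPKM in Normal and 3.67 and 4.22 FPKM in AAV-Ctrl. Sirt3, the mitochondrial deacetylase, fell, at 44.9 and 61 FPKM in Normal and 30.7 and 27.3 FPKM in AAV-Ctrl, and was the 1 gene of 18 on NAD synthesis and use to do so (2 with centring).

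Outside the lists, the largest rises included the gene model Gm3776, from 0 and 0.0478 to 15.7 and 23 FPKM, Clec7a, the beta-glucan receptor dectin-1, from 2.58 and 2.01 to 49.7 and 40.5 FPKM, Chil3, a secreted chitinase-like protein of macrophages, from 1.82 and 0.484 to 20.5 and 36 FPKM, and Acnat2, an acyltransferase for amino acids, from 11.7 and 2.88 to 139.7 and 105 FPKM. Fstl1 and Ccdc80, secreted proteins of mesenchymal cells, rose by 13.5-fold and 20.8-fold. The largest falls included Upp2, a liver uridine phosphorylase, at 279.9 and 662 FPKM in Normal and 81.1 and 15.6 FPKM in AAV-Ctrl, Inmt, a methyltransferase, at 678 and 1259.5 FPKM in Normal and 185 and 103 FPKM in AAV-Ctrl, and Gpcpd1, a glycerophosphocholine phosphodiesterase, at 65.5 and 84.5 FPKM in Normal and 13.6 and 13.5 FPKM in AAV-Ctrl. These genes were picked among those whose 2 groups did not overlap, which held for 73.4% of all genes tested. Long noncoding Gm31583 fell from 11.6 and 11.3 to 0.305 and 0.234 FPKM and Gm4316 from 5.49 and 4.77 to 0.17 and 0.156 FPKM.

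Some large differences rest on few reads or on very short genes. Trbd1, a T cell receptor diversity segment, was listed at 0 in Normal and at 26.4 and 13.8 FPKM in AAV-Ctrl, which came to 7 and 4 reads. Gm23726, a short miRNA gene, went from 39.6 and 13.7 to 2.7 and 1.24 FPKM, or from 57 and 22 to 4 and 2 reads. The pseudogenes Mup-ps16 and Mup-ps20 were listed at 0 in both AAV-Ctrl libraries, like Mup19 among the genes with copies.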
